A study of Mus musculus with 6 samples.

Results

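The sites described here are MS-275-only gained intronic peaks, which are places inside introns where chromatin was more open after MS-275 than after vehicle and where no peak was called for CXD101. The assay was ATAC-seq, which reads accessibility from the places where a transposase can insert sequencing adapters into DNA. The sorted cells were CD11b+Ly-6ChiLy-6G- cells, the phenotype of monocytic myeloid-derived suppressor cells (M-MDSCs), and they came from Hepa 1-6 tumors, a mouse hepatoma line grown in the liver of young adult female C57BL/6J mice. All 3 groups carried a WT genotype and the same tumor, and they differed in the agent injected: vehicle, MS-275 or CXD101, the inhibitors being given at the same daily dose. Each group had 2 libraries, and the peaks were called on the pooled libraries of a group, so no value per library was used and no difference below has a replicate check. The pooled MS-275 and CXD101 groups were each 1.14 times as deep as the vehicle group.

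Members were chosen by measured values. A peak was kept when it was called for MS-275 over vehicle, overlapped no peak of CXD101 over vehicle and none of MS-275 over CXD101, touched no window of 5 kb upstream of a transcription start site (TSS), and had its summit, the base of highest signal, inside a gene but in no exon. By this rule 2461 of the 8480 MS-275 gained peaks were members, out of 11800 peaks in the 6 lists of the series. The CXD101 list that a member must not overlap held only 284 peaks, and the deposited lists of both inhibitors over vehicle hold fewer peaks than the study counts for these groups, so MS-275-only refers to the deposited lists alone. Another 1786 MS-275-only peaks were intergenic, 2126 lay at promoters and 356 in exons. The 2461 summits fell in 2123 intervals, and 629 of them shared an interval with at least 1 other summit. Fold enrichment and p of MS-275 over vehicle chose the sites, so these values are a description, with no test. The lists held only differences between groups, so the sorted identity of the cells could not be checked from the level of their marker genes.

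MS-275 and CXD101 inhibit class I histone deacetylases (HDAC1-3), the enzymes that remove acetyl groups from histone tails. Acetylated histones are found at open chromatin, and their removal by deacetylases in corepressor complexes is a common way to keep a regulatory site shut. Introns hold many enhancers, the first intron more than the later ones, and in myeloid cells such elements are bound by factors of the ETS, C/EBP, RUNX and IRF families.

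The sequences at the strongest sites show the DNA around their summits. Each line is the mm10 plus strand, 50 bases to either side of the summit, in lower case, with any match to the 18 motifs searched in capitals. The first 6 are the members with the highest −log10 p, and the last 2 are the strongest summits with a match to the E-box CAGCTG and to the SP/KLF motif GGGCGGG, the 2 motifs that were more frequent at the members than at the same positions moved by 10 kb. Ank3 (chr10:69884261-69884361) encodes ankyrin G, a membrane scaffold, and its capitals mark an IRF match (GAAANNGAA read on the other strand). Maml3 (chr3:51739340-51739440) encodes a Notch coactivator, Spi1 (chr2:91089348-91089448) the myeloid ETS factor PU.1, and Samsn1 (chr16:75909076-75909176) a signalling adaptor of blood cells. The site assigned to Fgfr2 (chr7:132347621-132347721), a growth factor receptor gene, lies in a very long annotated intron. The 2310067P03Rik (chr13:83066368-83066468) site lies in a noncoding gene. Crispld2 (chr8:120041187-120041287) encodes a secreted protein, and Celf5 (chr10:81465254-81465354) an RNA-binding protein.
Ank3: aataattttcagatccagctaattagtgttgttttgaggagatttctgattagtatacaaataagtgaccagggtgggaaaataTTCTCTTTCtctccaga
Maml3: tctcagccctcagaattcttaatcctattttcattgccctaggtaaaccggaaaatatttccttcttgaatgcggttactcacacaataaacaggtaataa
Spi1: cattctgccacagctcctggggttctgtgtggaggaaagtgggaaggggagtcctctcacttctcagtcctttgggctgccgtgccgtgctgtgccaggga
Samsn1: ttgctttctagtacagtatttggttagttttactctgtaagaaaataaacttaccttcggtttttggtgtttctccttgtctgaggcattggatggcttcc
Fgfr2: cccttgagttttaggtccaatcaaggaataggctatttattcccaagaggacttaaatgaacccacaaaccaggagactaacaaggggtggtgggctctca
2310067P03Rik: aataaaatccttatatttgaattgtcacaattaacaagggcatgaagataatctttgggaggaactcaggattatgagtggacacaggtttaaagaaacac
Crispld2, E-box: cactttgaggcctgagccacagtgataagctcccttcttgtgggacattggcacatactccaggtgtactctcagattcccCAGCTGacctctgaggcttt
Celf5, SP/KLF: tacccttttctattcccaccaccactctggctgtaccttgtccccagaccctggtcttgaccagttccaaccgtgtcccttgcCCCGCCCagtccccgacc

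The strength of the peaks was low to moderate. Tags, meaning sequenced reads piled up over the summit, were solved from the fold enrichment and the p of each peak and put on the scale of the vehicle depth. The median site had 45.5 MS-275 tags against a local vehicle level of 14.2, and between the lower and upper quartiles the sites had 33.2 to 62.1 tags, with vehicle levels of 9.6 to 21. The vehicle level is the highest of several averages around the summit, and the signal right at the summit can be lower. The median fold enrichment was 2.91, with a range of 1.40 to 7.23. Fold enrichment reached 5 at 48 sites (1.95%) and was under 2 at 151 (6.14%). Only 93 sites (3.78%, 95% Wilson interval 3.09 to 4.61%) had vehicle signal at the genome-wide background of 5.84 tags, while 1577 (64.1%, 62.2 to 66.0%) had at least 2 times that background. Most of these sites therefore already had vehicle reads around them above the genome average. All intervals given here describe counting error alone. Peaks do not stand for replicates, and PCR reads are not independent molecules.

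**Figure D1:**
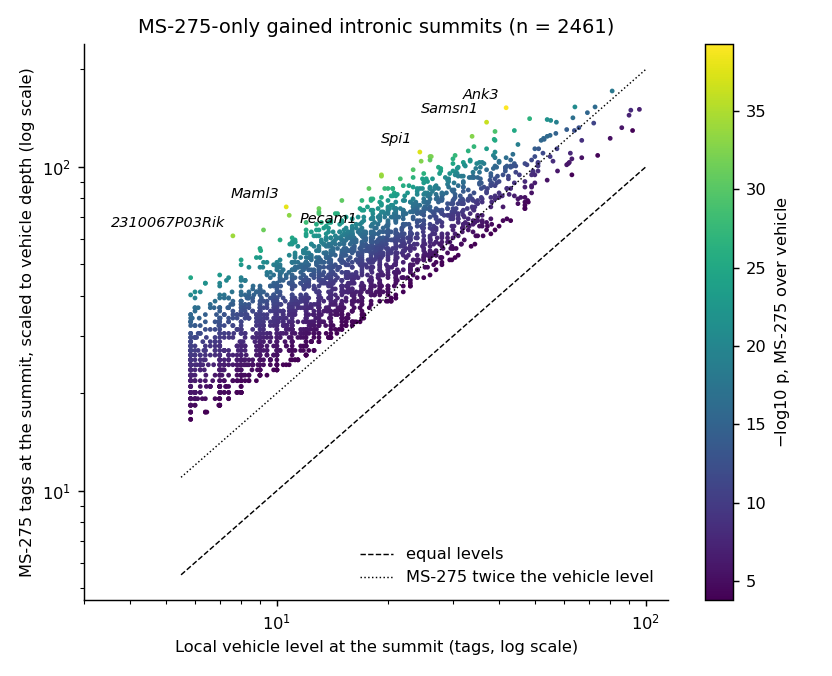
MS-275 tags (vertical axis, scaled to vehicle depth) against the local vehicle level (horizontal axis) at each of the 2461 summits, both on log axes, with colour for −log10 p. Every point lies above the dashed line of equal levels because the sites were chosen so, and the strongest named sites spread from low to high vehicle levels, from 7.60 at 2310067P03Rik to 41.8 at Ank3.

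The strongest sites differed in kind. The Ank3 summit, in intron 14 of 42, had the lowest p, with 152 tags after MS-275 and 41.8 in vehicle (3.58-fold, −log10 p 39.28). The Maml3 summit rose from a lower start, at 75.2 tags over 10.6 (6.57-fold). At Spi1 the summit had 111 tags over 24.4 (4.41-fold), in the only intron of an extended transcript and 6.70 kb upstream of the start of the representative transcript. The Samsn1 summit sat only 0.153 kb from a TSS, with 137 tags over 37.0 (3.64-fold). The 2310067P03Rik site had the largest fold enrichment of all, 7.23, from 61.2 tags over 7.60. The distance of these 5 sites from the nearest TSS ran from 0.153 kb at Samsn1 to 22.7 kb at Maml3.

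Aen, a p53-responsive nuclease gene, had 93.6 tags over 19.2 (4.68-fold) at 0.940 kb from a TSS. Pecam1, a platelet and endothelial adhesion receptor that myeloid cells also carry, had 70.8 tags over 10.8 (6.09-fold) in intron 2. Macrod1, an ADP-ribose hydrolase gene, had 124 tags over 33.8 (3.60-fold) in intron 3, and Gng12, a G protein subunit gene, 104 over 24.6 (4.10-fold), also in intron 3. These were the top 10 sites together with the Fgfr2 site, at 94.4 tags over 19.2 (4.72-fold).

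At the other end, the weakest members were a pair of summits in Rapgef5, each with 38.5 tags over 20.4 (1.84-fold, −log10 q 1.31), and a Bach2 summit with 68.2 tags over 43.0 (1.57-fold, −log10 q 1.31). The member closest to a CXD101 gained peak was in Plekhh2, 154 bp away, and the closest to a direct peak, that is one of MS-275 over CXD101, was in Dpy30, 18 bp away. The excluded intronic peaks with the smallest overlaps were in Anks1b (189 bp with a CXD101 gained peak) and Ptk2b (151 bp with a direct peak). In all, 20 members lay within 500 bp of a CXD101 gained peak and 73 within 500 bp of a direct peak.

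Absence from both CXD101 lists does not place CXD101 at the vehicle level. At the median member, a CXD101 gain would have needed 32.0 tags at the summit, more than 2 times the vehicle level of 14.2, and a call of MS-275 over CXD101 would have needed CXD101 to lie under 26.1. At 1873 sites (76.1%) there was a range of CXD101 levels, with values between those limits, that both lists would have missed. At the other 588 sites the limits crossed, so by the summit alone any CXD101 level would have passed one of them. A call also required a stretch of at least 200 bp, and these 588 peaks were 228 bp long at the median, against 262 bp for the rest. Of the 588, 141 (24.0%) were under 210 bp, against 17.7% of the rest and 19.0% of the 100 strongest sites. Whether length accounts for the missed calls was not tested. Among the 100 strongest sites the median MS-275 level was 79.6 tags and the vehicle level 18.6, with limits of 38.5 tags for a CXD101 gain and 53.0 for the direct call. The first limit concerns CXD101 tags at the summit, and the second a local CXD101 level taken around it, as for vehicle. These limits are therefore a guide and no firm bound at any site, and the CXD101 level was measured at none. MS-275 and CXD101 could not be tested against each other here. The 3 lists that the rule left out (vehicle over MS-275, vehicle over CXD101, CXD101 over MS-275) overlapped 0 of the 2461 members. This says little, since vehicle over MS-275 is the reverse of the contrast that chose the members, CXD101 over MS-275 held 2 peaks, and all 3 share libraries with the lists that chose them.

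The members were short, with a median of 249 bp and 473 (19.2%) under 210 bp, near the minimum of the lists. Intronic peaks gained with MS-275 and also above CXD101 (489 peaks) had a median of 394 bp, those gained with both inhibitors (94 peaks) 567 bp, and intronic peaks lost with MS-275 (326 peaks) 386 bp. Fold enrichment was alike at the first of these, with a median of 2.91. Since overlap with a CXD101 list excluded a peak, longer peaks were more easily excluded, and length is in part set by the rule.

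Members were denser near gene starts. The eligible intron, meaning every intronic base that the rule could have taken, was 920 Mb, and the overall density was 2.68 summits per Mb. Within 1 kb of a TSS the density was 8.52 per Mb (exact Poisson 95% interval 7.44 to 9.73, 221 summits), and it fell with each step of distance, to 5.61 at 1 to 2 kb, 3.46 at 2 to 5 kb, 3.03 at 5 to 10 kb, 2.68 at 10 to 20 kb, 2.13 at 20 to 50 kb, 1.40 at 50 to 100 kb and 0.787 (0.578 to 1.05, 47 summits) beyond 100 kb. The median member lay 9.80 kb from the nearest TSS, compared with 15.7 kb for eligible bases. Fold enrichment did not follow the density, with medians of 2.59 within 1 kb and 2.78 beyond 100 kb, and 3.09 at 20 to 50 kb. Vehicle levels were highest near the TSS, with medians of 18 within 1 kb and 12.8 to 14.0 beyond 5 kb.

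The first intron was favoured, also away from the start. Of the 1949 members in an intron of a representative coding transcript (the one with the longest exons), 836 were in the first intron (42.9%, 40.7 to 45.1%), where 25.6% of the eligible bases lie. Beyond 5 kb downstream of a TSS the share was still 37.9% (540 of 1425, 35.4 to 40.4%) against 23.5% of the bases. Intronic peaks lost with MS-275 had 22.4% in the first intron (63 of 281), 20.5 percentage points lower (Newcombe interval 14.8 to 25.5). Within 1 kb downstream of a TSS the shares were 8.98% for members and 2.76% for lost intronic peaks (9 of 326), a difference of 6.22 points (3.59 to 7.99). Peaks that were also above CXD101 had 46.4% in the first intron (156 of 336), and the interval of their difference to the members, −9.31 to 2.17 points, included 0. Within 5 kb of a TSS the members (28.3%) and the lost peaks (23.3%) differed by 5.01 points, with an interval of −0.18 to 9.64 that included 0.

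**Figure D2:**
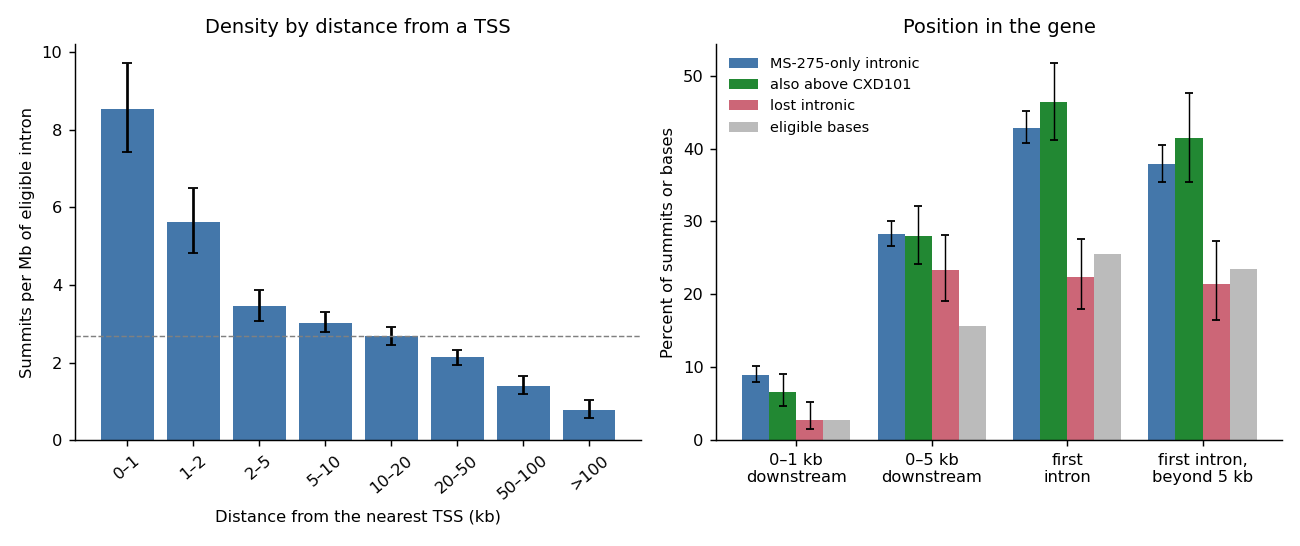
Left, summits per Mb of eligible intron by distance from the nearest TSS (bars; error bars are exact Poisson 95% intervals; the dashed line is the overall density of 2.68). Right, percent of summits in 4 positions for MS-275-only intronic peaks, intronic peaks also above CXD101 and intronic peaks lost with MS-275, with 95% Wilson intervals, beside the percent of eligible bases. Density fell from 8.52 to 0.787 per Mb, and the first intron held 42.9% of members against 22.4% of lost peaks.

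The X chromosome held 29 members (1.18%, 0.822 to 1.69%), although 4.63% of the eligible bases are there. Its density was 0.683 per Mb (0.457 to 0.981), and that of the autosomes ran from 1.80 on chromosome 5 to 3.65 on chromosome 15. Of all MS-275 gained peaks 1.49% were on the X, of MS-275 lost peaks 0.868% (0.399 to 1.88%) and of CXD101 gained peaks 2.46% (7 of 284). Among the X-linked members were summits in Tbl1x, a subunit of the NCoR/SMRT corepressor, at 49.8 and 37.6 tags over 10.0 and 9.0.

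By base composition the members lay between introns and promoters. The median GC content of the 201 bases around the summit was 48.3% (quartiles 43.3 and 53.2%), compared with 44.8% at the same positions moved by 10 kb, 42.3% on a regular grid of eligible intron and 53.2% at MS-275-only promoter peaks. A window was called CpG-rich when its GC content was at least 50% and its CpG count at least 0.6 of that expected from its bases. CpG-rich windows made up 3.90% of members (96 of 2461, 3.20 to 4.74%), 0.560% of the grid, 1.84% of lost intronic peaks (6 of 326) and 26.2% of promoter peaks (24.3 to 28.1%). They were concentrated near starts, at 29.0% of the members within 1 kb of a TSS, 9.09% at 1 to 2 kb and at most 1.33% in every bin further out. Beyond 5 kb from any TSS the share was 0.680% (12 of 1764, 0.390 to 1.19%) against 0.411% of the grid there. Summits in soft-masked repeats were fewer than on the grid, at 17.7% (16.2 to 19.2%) against 30.1%, and also fewer than at the moved positions (26.6%).

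Of the motifs, the E-box CAGCTG, bound by class I helix-loop-helix factors, stood at 272 members (11.1%, 9.87 to 12.4%), compared with 8.17% of the moved positions (difference 2.88 points, 1.24 to 4.53) and 7.60% of the grid. Beyond 5 kb from a TSS it was at 10.9% of members and 7.49% of the grid. It was not particular to the members, since 15.6% of lost intronic peaks (51 of 326) and 12.5% of promoter peaks held it. The SP/KLF motif GGGCGGG was at 62 members (2.52%, 1.97 to 3.22%), 1.38% of the moved positions and 0.937% of the grid, and at 11.1% of promoter peaks. Away from starts it dropped to 1.47% (26 of 1764) against 0.881% of the grid. All matches were searched on both strands within 100 bases of the summit, and a match is a description and not a bound site.

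The AP-1 motif TGACTCA, bound by Fos and Jun dimers, was frequent at the lost sites and not at the members. It was at 77 members (3.13%, 2.51 to 3.89%), close to the moved positions (3.82%) and the grid (3.35%), while 61 of 326 intronic peaks lost with MS-275 held it (18.7%, 14.9 to 23.3%). The difference, members minus lost peaks, was −15.6 points (−20.2 to −11.6). The other gained lists were as low as the members, with 3.75% of intergenic peaks, 2.66% of intronic peaks also above CXD101 (13 of 489) and 2.13% of those gained with both inhibitors (2 of 94), so the low share is not particular to the members. The members and the lost intronic peaks had a median GC content of 48.3%. Both come from the same MS-275 and vehicle libraries, with the groups exchanged.

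The motifs of myeloid factors were close to their local background, the positions moved by 10 kb. The PU.1 motif GAGGAAGT was at 1.87% of members (1.40 to 2.48%), 1.75% of the moved positions and 1.15% of the grid, a difference to the grid of 0.716 points (0.240 to 1.34). The C/EBP motif TTGCNNAA was at 9.47%, 8.90% and 9.03%, and the RUNX motif TGTGGTTT at 1.67%, 1.50% and 1.66%. The IRF motif GAAANNGAA was at 7.03%, 7.28% and 7.57%. The interval of the difference between members and moved positions included 0 for each of these, with bounds of −0.636 to 0.882 points for PU.1 and −1.05 to 2.18 for C/EBP. The CTCF motif was at 0.0813% of members.

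**Figure D3:**
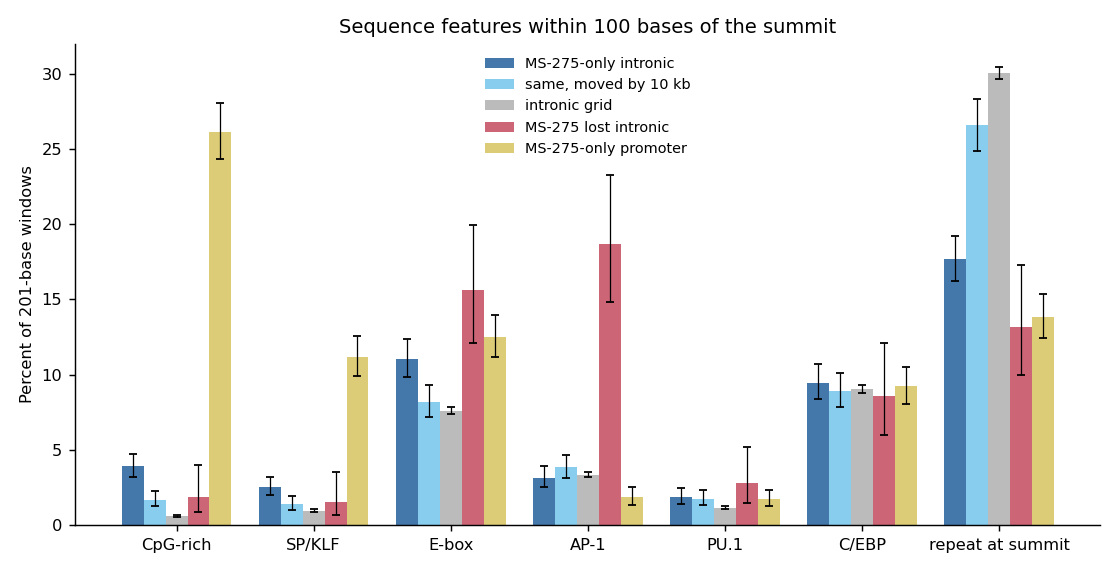
Percent of 201-base windows with each sequence feature (bars; error bars are 95% Wilson intervals) for members, the same positions moved by 10 kb, a grid of eligible intron, lost intronic peaks and MS-275-only promoter peaks. AP-1 was at 3.13% of members and 18.7% of lost intronic peaks, and CpG-rich windows at 3.90% of members and 26.2% of promoter peaks.

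Of the members, 2142 (87.0%) lay in at least 1 protein-coding gene and 319 in noncoding genes alone, 223 of these in lincRNA genes. Where genes overlapped, a single named summit was assigned to the shortest coding gene. By that rule 1104 coding genes had a member. In the counts of genes and in the lists, every coding gene that spans a summit counted as a host. Counted so, at least 1 member was found in 1117 of the 17938 protein-coding genes with an eligible intronic base. This gives 6.23% as the background for every count of genes below. Genes were put in 4 groups of near equal size by their eligible intronic length. The group with the longest introns was hit most often, at 17.4%, and that with the shortest least often, at 0.580%. The groups between them, with up to 12.9 and up to 38.6 kb of eligible intron, had 2.05% and 4.93%. The density ran the other way, from 5.49 per Mb in the shortest group to 2.56 in the longest. A single member was in 612 genes, and 78 genes had 5 or more. Within 10 kb of another member lay 1411 members (57.3%), and within 1 kb 1146, with no background given for either count. Summits of 1 interval are counted separately in these numbers, and 629 summits shared an interval.

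Genes with a member more often also had a gained peak upstream of their own start. Of the 1117 host genes, 274 (24.5%, 22.1 to 27.1%) had an MS-275 gained peak in their own 5 kb upstream window, compared with 917 of 16821 other genes (5.45%, 5.12 to 5.80%). The shares were 42.3% and 4.19% in the group with the shortest introns (11 of 26 hosts) and 24.2% and 7.96% in that with the longest. For CXD101 gained peaks they were 1.25% (14 of 1117) and 0.202% (34 of 16821). Promoter and intronic peaks of MS-275 over vehicle come from 1 contrast, so this is a description.

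Beside the annotated spans of Fgfr2 and Gm20388, which cross other genes, the genes with most members were those of the ETS factors Etv6 and Erg. Etv6, an ETS-family repressor needed in blood stem cells, had 18 summits in 195 kb of eligible intron, spread over 161 kb. Of these, 4 were in the first intron and began 5.69 kb from a TSS, with vehicle levels of 35.0 to 47.8 and 61.2 to 78.7 MS-275 tags. The strongest was in intron 2, with 47.2 tags over 9.6 (4.55-fold). Erg, an ETS factor of stem cells and endothelium, had 13 summits with 28.9 to 76.9 tags over vehicle levels of 10.0 to 21. In intron 2 lay 10 of these summits, between 4.10 and 26.5 kb from a start of the gene, and the strongest was in intron 4, with 76.9 tags over 19.2. Fli1, the ETS gene most akin to Erg, had 5 summits, all in its first intron between 21 and 39.2 kb from the start, with 46.3 to 76.1 tags over 13.3 to 33.4. Erg was in no list but is named by its number of members.

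Pecam1 had 11 summits, 8 of them in a stretch of intron 2 from 9.86 to 14.6 kb past a TSS, and its vehicle levels of 8.20 to 17.0 were all low beside 25.4 to 70.8 MS-275 tags. Zfhx3, a large homeobox and zinc finger factor gene, had 11 summits in 932 kb of eligible intron, at 17.5 to 103 tags. Gse1, a corepressor-associated gene, had 11 and Pde4d, a cAMP phosphodiesterase, had 11. Of the last 2, 1 of the Gse1 summits and 0 of the Pde4d summits lay inside the representative transcript. The counts for Fgfr2 (23 members) and Gm20388 (22) come from annotated spans with 2250 and 3010 kb of eligible intron that run across neighbouring genes. Once the shortest host was taken, Fgfr2 kept 8 and Gm20388 5, and none of the 8 was inside the representative transcript of Fgfr2.

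The densest genes were small. Thbs1, the matrix protein thrombospondin-1, had 4 summits in 1.84 kb of eligible intron, all in 1 interval of introns 7 and 8 between 4.96 and 5.85 kb from the start. Their levels were alike, at 28.0 to 33.2 tags over 11.6 to 13.6. Gpr65, a proton-sensing receptor, had 4 in its first intron at 1.08 to 2.86 kb, and the strongest had 43.7 tags over 9.80. Lst1, a myeloid transmembrane adaptor, had 3 summits, with 36.7 to 77.8 tags over 14.6 to 48.0. Dusp5, the phosphatase that inactivates ERK in the nucleus, had 6 in introns 2 and 3 at 6.97 to 11.3 kb. Its strongest had 82.2 tags over 21.2 (3.75-fold), and its weakest 33.2 over 16.2.

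**Figure D4:**
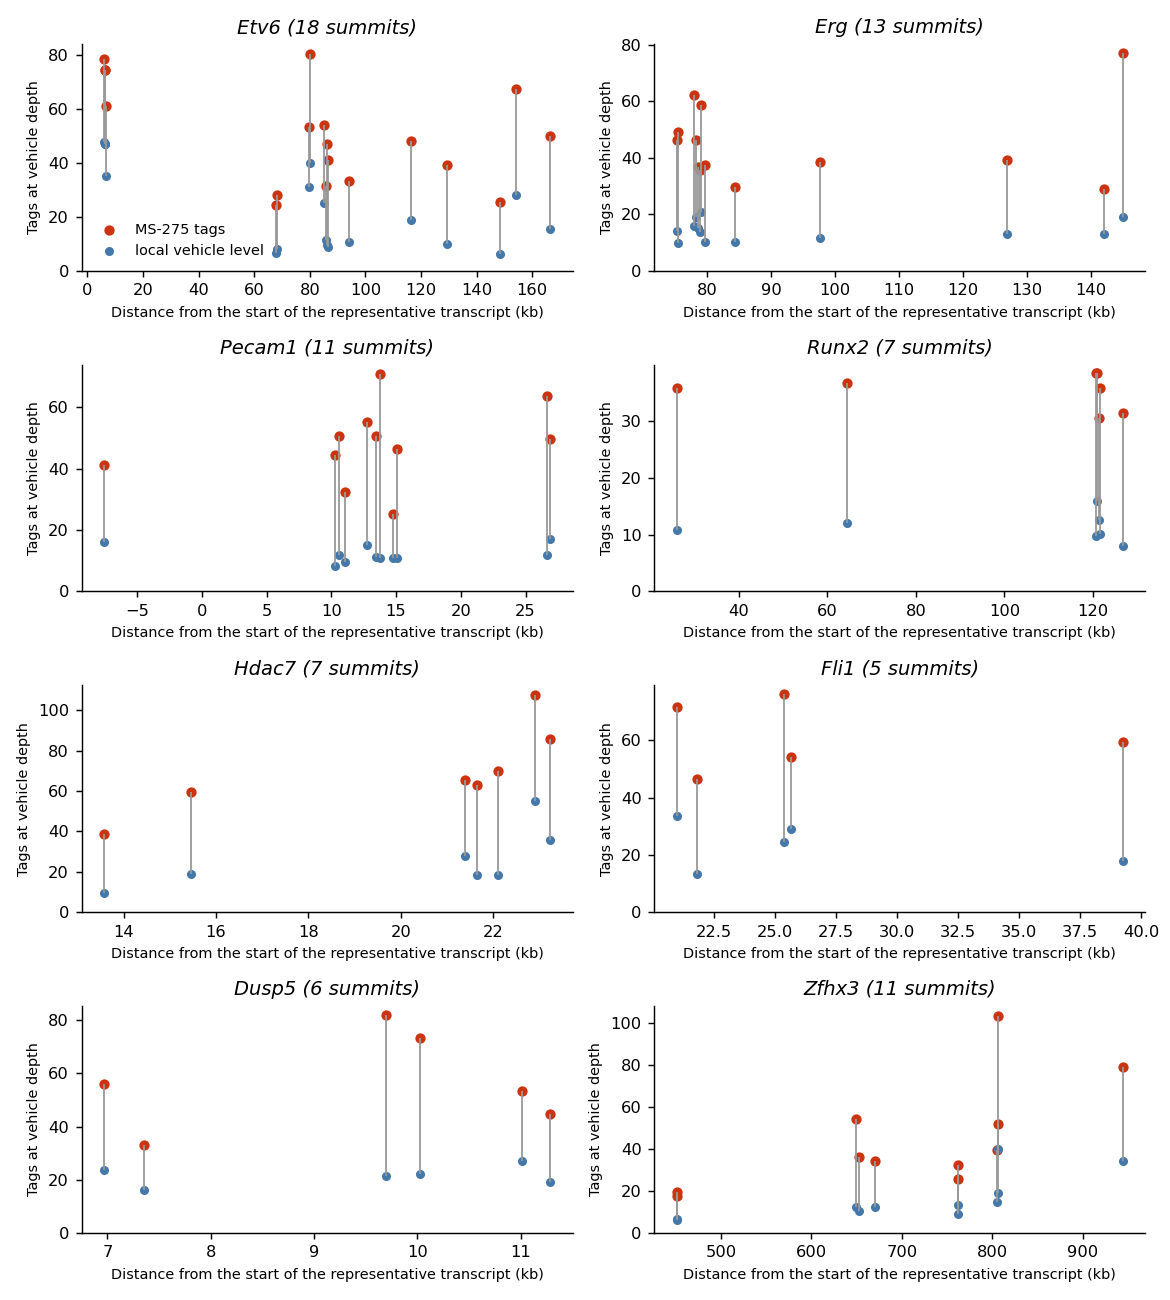
MS-275 tags (red) and local vehicle level (blue) at each member of 8 genes, joined by a line, against the distance from the start of the representative transcript in kb (each panel has its own axes). In Etv6 the 4 summits near the start had vehicle levels of 35.0 to 47.8, and in Pecam1 a row of summits near 10 to 15 kb had vehicle levels at or under 15.0.

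Myeloid transcription factor genes had members more often than the background. Of 43 such genes with an eligible base, 11 held 47 members (25.6%, 14.9 to 40.2%, against 6.23% of all genes), or 15.8 per Mb against 2.75 over all coding genes. A high density was not particular to this list, since most lists below were also above 2.75, up to 14.4 for chemokine and receptor genes. That value includes the Cx3cr1 summits, which lay in an annotated extension. The median gene of the list had 26.7 kb of eligible intron, in the group where 4.93% of all genes had a member. Such a match by the median gene is rough, since longer genes of a list, here Etv6 with 195 kb, fall in the longest group. The 17.4% of that group lies inside the interval of this list and of each list below whose median gene is given. The hosts were Spi1, Runx1, Mitf, Etv6, Rxra, Fli1, Tcf4, Bach2, Runx2, Nfkb1 and Nr4a1, and Etv6 alone gave 18 of the 47. Runx1, the core RUNX factor of blood cells, had summits with 71.7 tags over 18.2 (3.79-fold) and 35.8 over 10.0 in intron 2. Runx2, named after its values were seen, had 7 summits with 30.6 to 38.5 tags over 8.0 to 16, of which 5 lay 119 to 125 kb past a start of the gene. Mitf, a factor of macrophage and osteoclast genes, had 62.1 tags over 15.2 (3.89-fold) in its first intron. Rxra, the shared partner of nuclear receptors, had 57.7 over 14.4 in intron 4. The C/EBP family could not be scored in full, since Cebpa, Cebpb and Cebpd have no eligible intronic base.

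Suppressive effectors, the products by which M-MDSCs restrain T cells, had 5 of 30 genes with members (16.7%, 7.34 to 33.6%). The median gene of this list had 13.4 kb of eligible intron, in the group where 4.93% of all genes had a member. Entpd1, the CD39 ectonucleotidase, had 103 tags over 32.0 (3.16-fold) and 22.7 over 9.0, and Nt5e, the CD73 enzyme of the next step to adenosine, 23.6 over the background of 5.84. Axl, a receptor for dying cells, had summits of 58.6 over 15.2 and 55.1 over 17.8 in intron 4. Vegfa, the endothelial growth factor, had 73.4 over 23.4 and 59.5 over 21.4, both within 0.509 kb of a TSS. They lay 1.52 and 1.15 kb past the start of its representative transcript. Ncf4, an NADPH oxidase subunit, had 84.8 over 30.2. The genes Arg1, Nos2 and Cd274, at the centre of this list, held no member.

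Histone deacetylase complex genes had 5 of 44 with members (11.4%, 4.95 to 24.0%), an interval that takes in the background of 6.23%. Their median gene had 26.2 kb of eligible intron, in the group where 4.93% of all genes had a member, just under the interval. Their density was 5.01 members per Mb, above the 2.75 of all coding genes. Hdac7, a class IIa enzyme outside the stated targets, had 7 summits, all in its first intron at 0.541 to 10.2 kb from a TSS, with 38.5 to 108 tags over 9.4 to 55.0. The corepressor subunits Tbl1xr1 and Tbl1x had 2 each, Tbl1xr1 at 53.3 over 11.2 and 63.0 over 21. Kat2b, the acetyltransferase PCAF, had 3 in its first intron, the strongest with 99.7 over 35.6. Rere, a corepressor gene, had 1. None of Hdac1, Hdac2 and Hdac3 held a member.

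Of chemokine and receptor genes, 3 of 28 were hosts (10.7%, 3.71 to 27.2%). Their median gene had 4.00 kb of eligible intron, in the group where 2.05% of all genes had a member. The C5ar1 summit, in the complement receptor gene, was 0.270 kb from the start with 63.0 tags over 23.0, and that of Cmtm7 was among the weakest, with 23.6 over 10.0. The 2 summits counted for Cx3cr1, the fractalkine receptor of monocytes, lay in an annotated extension that crosses other genes, and their shortest hosts were Ttc21a (93.6 over 31.0) and Csrnp1 (56.0 over 19.2). Without them only C5ar1 and Cmtm7 remain as hosts, with 1 summit each, and the share and density of the list are lower. Ccr2 held no member. Innate sensing and NF-kB genes had the lowest share, 2 of 47 (4.26%, 1.17 to 14.2%), which is near the background. Their density was 5.35 members per Mb, above the 2.75 of all coding genes. Both hosts were hit repeatedly: Nod1, a cytosolic sensor of bacterial cell walls, had 4 summits with 56.8 to 80.4 tags over 13 to 35.8, and Nfkb1 had 2.

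Integrin and adhesion genes had 6 of 32 (18.8%, 8.89 to 35.3%), close to the 17.4% of the longest group of genes, in which its median gene falls with 42.7 kb of eligible intron. The list was led by Pecam1 (11 of the 19 members). Itgb3, the beta chain of the vitronectin receptor, had 114 tags over 37.0 in intron 10, and Alcam had 73.4 over 28.0 and 79.6 over 33.8 in its first intron. Jaml had 45.5 over 13. The summit counted for Itga1 lay in a shorter gene, Gm49395. The Itga8 summit was at the genome background in vehicle, with 28.0 over 5.84. Lectin, Fc and scavenger receptor genes had 6 of 34 (17.6%, 8.35 to 33.5%): Mrc2, Lrp1, Clec12a, Cd163, Clec4e and Fcgr1. The median gene of this list had 10.8 kb of eligible intron, in the group where 2.05% of all genes had a member. Clec12a, an inhibitory lectin of myeloid cells, had 74.3 over 29.0, and Fcgr1, the high-affinity IgG receptor, 53.3 over 26.4 at 0.152 kb from a TSS.

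Growth factor and cytokine receptor genes had 8 of 47 (17.0%, 8.89 to 30.1%). Their median gene had 36.6 kb of eligible intron, in the group where 4.93% of all genes had a member, though near its upper limit of 38.6 kb. Igf1r, the IGF-1 receptor, had 6 summits, and its strongest had 95.3 tags over 30.8 in intron 2. Il1rap, Nrp1, Nrp2, Il21r, Egfr, Bmpr1a and Pdgfrb were the other hosts, with Nrp2 at 136 over 72.2 in its highest summit (1.88-fold). Kinase genes of the PKC, PI3K and MAPK pathways had 8 of 50 (16%, 8.34 to 28.5%). Their median gene had 58.2 kb of eligible intron, and the longest group of all genes had 17.4%. Prkce had 8 summits at 25.4 to 114 tags, Prkcb 4 and Prkch 2, the stronger of these at 67.3 over 15.0. Map3k3, Prkca, Map2k6 and Pik3r1 were the other kinase pathway hosts. Inpp5d, the SHIP1 phosphatase of blood cells, had 44.6 over 13.

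Synaptic and neuronal genes had many hosts but few members for their length. Of these genes 18 of 81 were hosts (22.2%, 14.5 to 32.4%), with 0.647 members per Mb, under the 2.75 of all coding genes. The median gene of this list had 511 kb of eligible intron, and the 17.4% of the longest group lies inside the interval. Syn3, a synapsin gene, still had a summit of 71.7 tags over 14.6 (4.66-fold). Nedd4 family and Trim ubiquitin ligase genes had 3 of 37 (8.11%, 2.80 to 21.3%) and 1.93 per Mb: Hecw2 with 76.1 over 20.6, Wwp2 with 39.3 over 8.40 and 26.2 over 5.84, and Trim30a with 29.7 over 10.9.

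**Figure D5:**
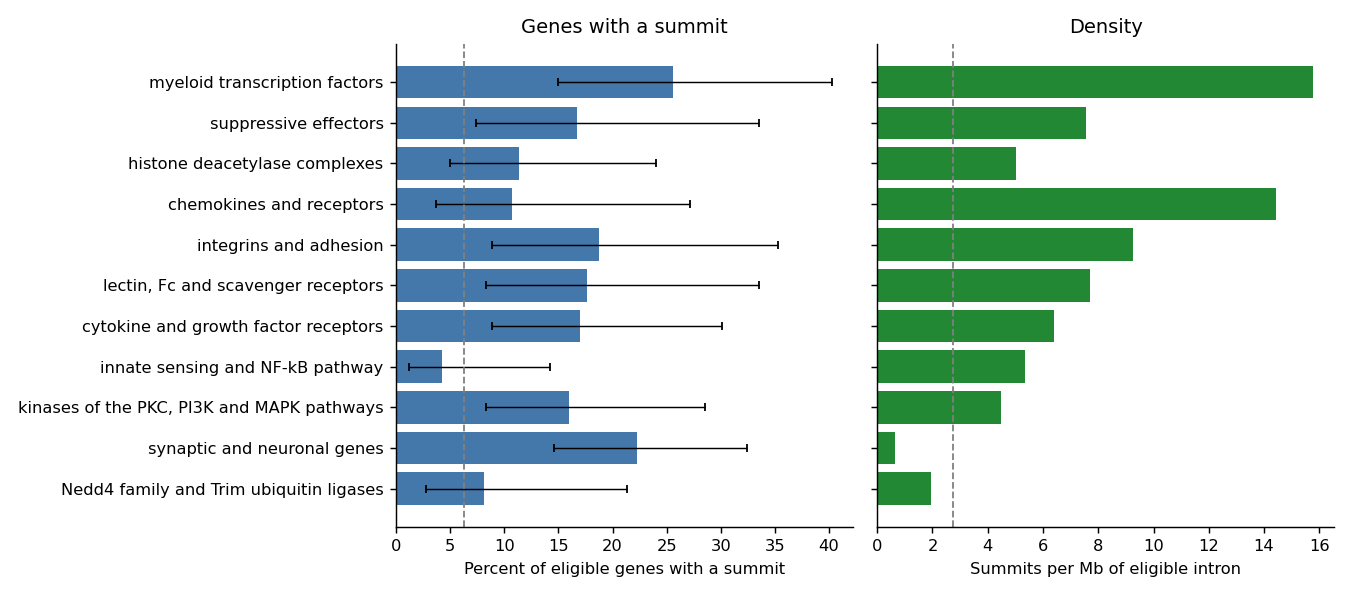
Left, percent of the eligible genes of each list reported here with at least 1 member (error bars are 95% Wilson intervals; dashed line, 6.23% over all coding genes). Right, members per Mb of eligible intron (dashed line, 2.75 over all coding genes). Myeloid transcription factor genes were high in both, at 25.6% and 15.8 per Mb, and synaptic and neuronal genes were high in the first and low in the second, at 22.2% and 0.647 per Mb. Every list shown but the synaptic and ubiquitin ligase ones was above 2.75 per Mb, with 14.4 for chemokine and receptor genes (the Cx3cr1 summits included) and 9.25 for integrin and adhesion genes.

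Markers of the cell types that a sort from tumor could hold were read against the same background of 6.23%, which gives 0 or 1 host in a list of 8 to 10 genes. Monocyte markers had 2 of 9 eligible genes, Fcgr1 and Cx3cr1, but the summits of Cx3cr1 lay in its annotated extension with other genes as shortest hosts, and without them the count is 1. Macrophage (8 genes), neutrophil (9), T cell (10), NK cell (9) and erythroid (8) markers had 0. Dendritic cell, B cell, hepatocyte and hepatoma, endothelial, and fibroblast and stellate cell markers had 1 each: Bcl11a with 4 summits, Ebf1, Foxa1, Pecam1 with its 11, and Pdgfrb. Of the 10 endothelial markers the others, Cdh5, Kdr, Tek, Tie1, Ptprb, Stab2, Lyve1, Eng and Vwf, held no member. A change in the make-up of the sorted cells and a change of chromatin within them cannot be told apart in these pooled lists.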

How the data were processed

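ATAC-seq of sorted M-MDSCs was analysed from 6 deposited peak lists. Per the labels and methods, the authors aligned reads to mm10 with Bowtie2 and called peaks with MACS2 2.2.7.1, without a model and with a shift of 0, on the 2 pooled libraries of a group against those of another. Reads were not shifted to the transposase cut site. A summit is where reads pile up highest, so it need not lie at a cut. The deposited fold is a linear ratio, the treated over the control pileup once both were scaled to 1 depth. The authors' p-value and q-value were deposited as −log10 values, and the lowest −log10 q-value in the list of MS-275 over vehicle was 1.31, that is a threshold of 0.05. The methods state a stricter threshold on p, which the deposited lists do not follow, since the lowest −log10 p-value in that list was 3.79. Library totals were not used here, so precision was judged from the tags behind each peak.

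Each summit was 1 peak. Tags and vehicle levels were solved from the fold (pseudocount 1) and p, which gave whole tags at 2461 of 2461 members, 35 of them with a second solution. Tested on simulated data, the solution was right at 1949 of 1952 peaks (99.8%). Genes came from GENCODE M21 and sequence from RefSeq GRCm38.p6, the same assembly as mm10. Eligible intron was genic, outside exons and outside 5 kb upstream of any TSS, and was sampled each 20 kb for sequence. Shares have 95% Wilson intervals, their differences Newcombe intervals and densities exact Poisson intervals. No p across peaks and no set test was computed. The members, the 12 pathway and 11 marker lists, the 18 motifs and the tests were chosen with earlier results of these data known. The result of 1 pathway list is not reported here. Genes named were the hosts of the 10 strongest members, the 8 coding genes with most members, the 4 with most per 100 kb among those with at least 3, and the hosts in each list, all where 8 or fewer and otherwise the 6 with the highest −log10 p. Hosts beyond these, listed genes without a member, marker genes and the genes at the edges of the rule were named after their values were seen. Alternatives were stricter q and fold thresholds, 1 summit per interval, wider exclusion, whole peaks in introns, other TSS and gene definitions, narrower windows and a pseudocount of 0. Python 3.11.15, numpy 2.4.6, pandas 2.3.3, scipy 1.17.1, pysam 0.24.0 and matplotlib 3.10.9 were used.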

Additional observations from a re-analysis of the deposited data

How the results depend on the processing

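No paired analysis was possible because each deposited list pools the libraries of a group, which also means that no replicate could be left out. Of 78 alternative values of 9 results, 59 stayed within the interval of the reported value and 19 moved past it. For the number of members, staying meant within 1.5 times. No change of direction was looked for, since these results are single shares, medians and counts. At a q-value under 0.001 the CpG-rich share was 3.20%, the median MS-275 level 48.96 tags and the share of coding genes with a member 5.57%. A fold of at least 2 gave a median vehicle level of 13.8, and 1 summit per interval a median of 47.2 tags. With whole peaks in introns, 25.9% lay within 5 kb of a TSS, 3.12% were CpG-rich and 5.85% of genes had a member. Leaving out 1 kb downstream of each TSS gave 19.5% within 5 kb, 38.8% in a first intron, 1.05% CpG-rich and 5.84% of genes, as its construction implies. Protein-coding genes alone gave 26.1% within 5 kb and 4.98% CpG-rich. Windows of 50 bp to either side gave AP-1 at 1.79% and a median GC content of 48.5%. Counting the first intron of any transcript gave 59.5%, where 40.5% of the bases lie. A pseudocount of 0 gave whole tags at 25 members, with medians of 50.7 tags and 16. The CXD101 level was measured at no member and had no firm bound, and at 588 members its limits crossed. Shallow sites near the minimum length may be missed in any list, and marker genes could not be read for their level.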
